A study of Homo sapiens with 2 samples.

Results

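The genes of the extracellular matrix and of the integrins that bind it were examined in prostate cancer (CaP) CWR22rv1 cells with and without Akt1 and Akt2. Members were taken by their symbols: the collagens (COL), the laminin chains (LAMA, LAMB, LAMC), the integrins (ITGA, ITGB), the thrombospondins THBS1 to THBS4, and FN1, VTN, TNC, SPARC, SPP1, AGRN, HSPG2, NID1 and NID2. This gave 99 of the 19607 genes in the deposited table, namely 26 integrin subunits (the receptors), 69 matrix ligands and 4 genes, ITGB1BP1, ITGB1BP2, ITGB3BP and ITGBL1, that share the ITGB letters without being integrin subunits. CWR22rv1 is an established human CaP line. The Akt1/2 DKO cells carry CRISPR/Cas9 knockouts of Akt1 and Akt2, made by transfecting both guide plasmids together with a puromycin marker and isolating single clones, and the control cells are labelled wild type. The line was grown in RPMI medium with foetal bovine serum. RNA was sequenced as 1 library of each genotype, the labels do not say which clone was used, and no value below has a replicate check.

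Collagens form fibrils, basement membrane networks or beaded filaments, and laminins are trimers of an alpha, a beta and a gamma chain that build the basement membrane together with collagen IV, nidogens, agrin and perlecan. Integrins are pairs of an alpha and a beta subunit, and the pair decides which ligand is held: one group of alpha subunits binds collagen, another laminin, and another the RGD sequence of fibronectin and vitronectin. Ligand binding assembles talin, kindlin, focal adhesion kinase, paxillin and SRC at the inner face of the membrane. In the prostate, luminal cells rest on basal cells and a basement membrane, and tumour cells cross that layer when they invade.

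The libraries held 9970825 reads (control) and 10718654 reads (Akt1/2 DKO). AKT1 had 2645 reads in control and 591 in Akt1/2 DKO, and AKT2 had 2362 and 667, so the targeted genes matched the labels. Fold changes compare reads after TMM scaling, intervals are 95% exact intervals that cover counting error only, and a gene was called when it differed by at least 1.5-fold in either direction. Other cell types were checked by marker lists. The luminal keratins KRT8 and KRT18 had 6408 and 2433 reads in control and 12815 and 5306 in Akt1/2 DKO, so both were well above 0 in each library. The 5 endothelial markers summed to 2 and 3 reads, the 4 basal markers to 15 and 0 (KRT5 and TP63 at 0 in both), and the 5 leukocyte markers to 56 and 80, of which CD68 held 50 and 69. The 8 fibroblast markers had 913 and 128 reads. VIM, which many cultured epithelial cells also express, had 897 and 84 of these, so it held nearly all of them only in control. Without VIM the other 7 had 16 and 44 reads, of which LUM, a collagen-binding proteoglycan, had 5 and 35. In bulk RNA, fewer cells that express a gene and less RNA per cell cannot be told apart.

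Matrix genes differed widely between the genotypes, in both directions. Of the 99 members, 14 had no read in either library, 41, these included, had under 10 reads over both libraries, and 58 were kept. The numbers of members called were read against those of all genes. Of these 58, 36 were called, 14 higher and 22 lower in Akt1/2 DKO, which is 62.1%. Among all 13318 genes with at least 10 reads, 30.9% were called, 15.9% higher and 15.0% lower. Both shares were smaller among well-read genes. At 100 or more reads over both libraries, 16 of 30 members (53.3%) were called, 5 higher and 11 lower, beside 23.2% of all such genes. At 2-fold, 26 members were called, 11 higher and 15 lower, where 17.9% of all genes were. For 21 members the whole interval lay past 1.5-fold, as it did for 16.5% of all genes.

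**Figure D1:**
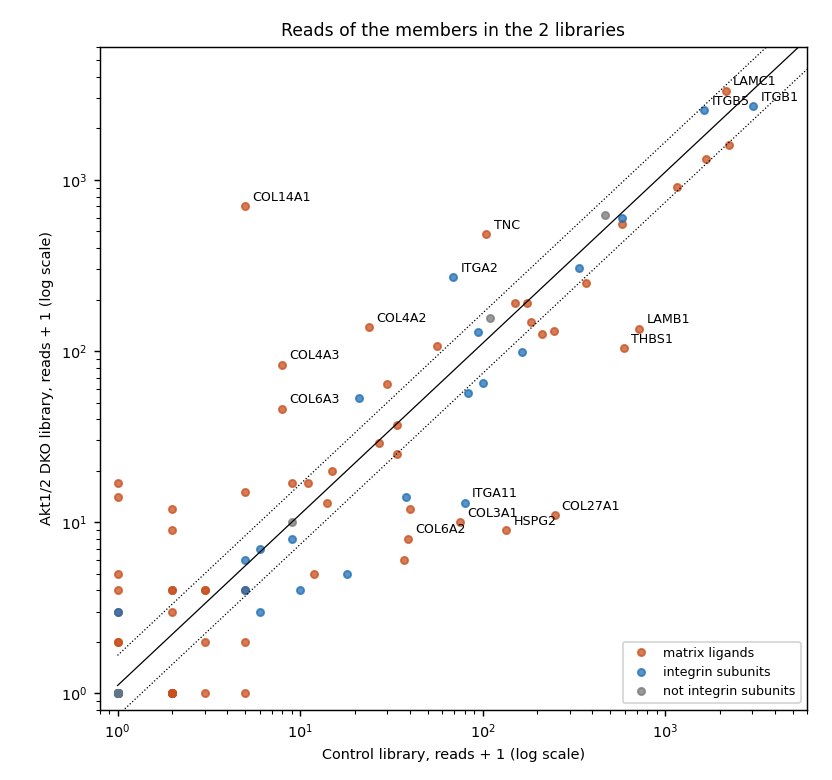
Reads of the members in the control library (horizontal, reads + 1, log scale) and the Akt1/2 DKO library (vertical, reads + 1, log scale). Each point is 1 gene, the solid line marks equal scaled reads and the dotted lines 1.5-fold. COL14A1 (4 and 701 reads) lies far above the line, and COL27A1 (247 and 10) and HSPG2 (134 and 8) lie far below it.

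Receptors and ligands were set side by side. Of the 26 integrin subunits, 16 were kept and 9 (56.25%) called, 2 higher and 7 lower, with a median log2 fold change of -0.33. Of the 69 ligands, 39 were kept and 27 (69.2%) called, 12 higher and 15 lower, with a median of -0.23. Of all genes, 30.9% were called, 15.9% higher and 15.0% lower. At 100 or more reads over both libraries, 4 of 9 receptors (44.4%) and 12 of 19 ligands (63.2%) were called, beside 23.2% of all such genes. The median over all genes was 0.0063. The medians of the receptors and ligands were 0.10 apart on the log2 scale, and the order turned when 50 or more reads over both libraries were asked for, with the receptors 0.173 above the ligands. The ligands covered the wider range, from -4.78 to 7.30, and the receptors ran from -2.87 to 1.84. The absolute log2 fold change had a median of 0.75 in the receptors, 1.07 in the ligands and 0.33 over all genes. Summed over their members, receptor FPKM (fragments per transcript length and sequencing depth) was 182.4 in control and 194 in Akt1/2 DKO, and ligand FPKM was 177.3 and 157.8. By summed scaled reads, the ratio of Akt1/2 DKO to control was 0.986 for receptors and 0.858 for ligands. The receptor sum was thus higher by FPKM only.

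**Figure D2:**
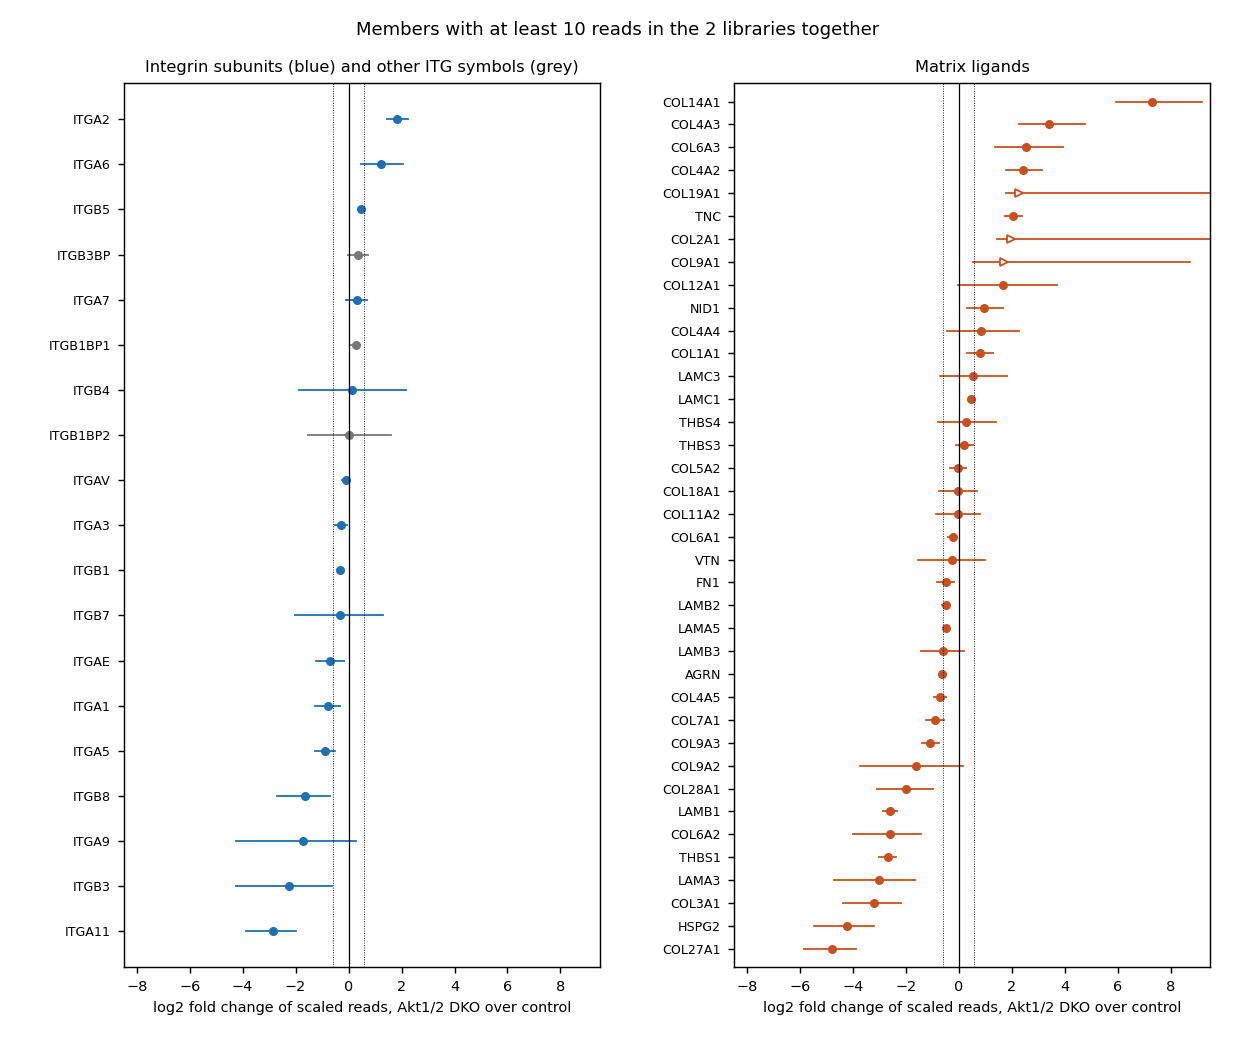
Log2 fold change of scaled reads, Akt1/2 DKO over control, for members with at least 10 reads over both libraries. Points are genes, bars are 95% intervals for counting error (cut at the frame where open), open triangles are bounds set by the floor of 3 reads, and dotted lines mark 1.5-fold. The integrin subunits (left) run from ITGA11 (-2.87) to ITGA2 (1.84) and the ligands (right) from COL27A1 (-4.78) to COL14A1 (7.30).

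The receptors with the highest levels were ITGB1, ITGB5 and ITGAV. ITGB1, the beta subunit shared by most matrix integrins, had 3039 reads in control and 2704 in Akt1/2 DKO, a log2 fold change of -0.32 (95% interval -0.39 to -0.24). ITGB5, which pairs with ITGAV to bind vitronectin, had 1644 and 2550 reads, a log2 fold change of 0.48 (0.39 to 0.57). ITGAV had 581 and 602 reads and its interval included no change (-0.26 to 0.07). None of these 3 passed 1.5-fold in reads. By FPKM the order of these 2 beta subunits differed between the libraries. ITGB1 stood at 92.6 FPKM in control and 76.5 in Akt1/2 DKO, and ITGB5 at 53.3 and 87.0. Within each library their counting intervals did not overlap, but these do not cover the length that FPKM divides by. The log2 FPKM ratio of ITGB5 was 0.71, past 1.5-fold and 0.22 above the value from reads. For ITGB1 that shift was 0.04, as was the median shift over all genes. By reads, which are not divided by length, ITGB1 was above ITGB5 in both libraries. The change of order thus rests on FPKM alone. ITGB5 lies on chromosome 3, where the median over genes with at least 50 reads was -0.53 on the log2 scale. Every other chromosome had a median from -0.20 to 0.12.

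The collagen-binding alpha subunits stood in a different order in each library. ITGA2, which forms the collagen receptor alpha2 beta1, had 68 reads in control and 270 in Akt1/2 DKO, 3.58-fold higher (2.74 to 4.74). ITGA11, a receptor for fibrillar collagen known from mesenchymal cells, had 79 and 12 reads, 7.30-fold lower (3.95 to 14.7). ITGA1, which binds collagen IV, had 100 and 64 reads, 1.73-fold lower (1.25 to 2.41), and its exons share 475 bases with PELO (383 and 613 reads), so reads of both genes could be mixed. ITGA10 had 4 and 3 reads. In control, ITGA11 led at 1.52 FPKM (1.20 to 1.89), above ITGA1 at 0.93 and ITGA2 at 0.86, whose counting intervals overlapped. In Akt1/2 DKO, ITGA2 stood at 3.18 (2.81 to 3.58), ITGA1 at 0.55 (0.424 to 0.702) and ITGA11 at 0.24 (0.124 to 0.419). ITGA2 held 25.4% of the summed FPKM of this group in control and 78.9% in Akt1/2 DKO, while the sum itself was 3.39 and 4.03.

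**Figure D3:**
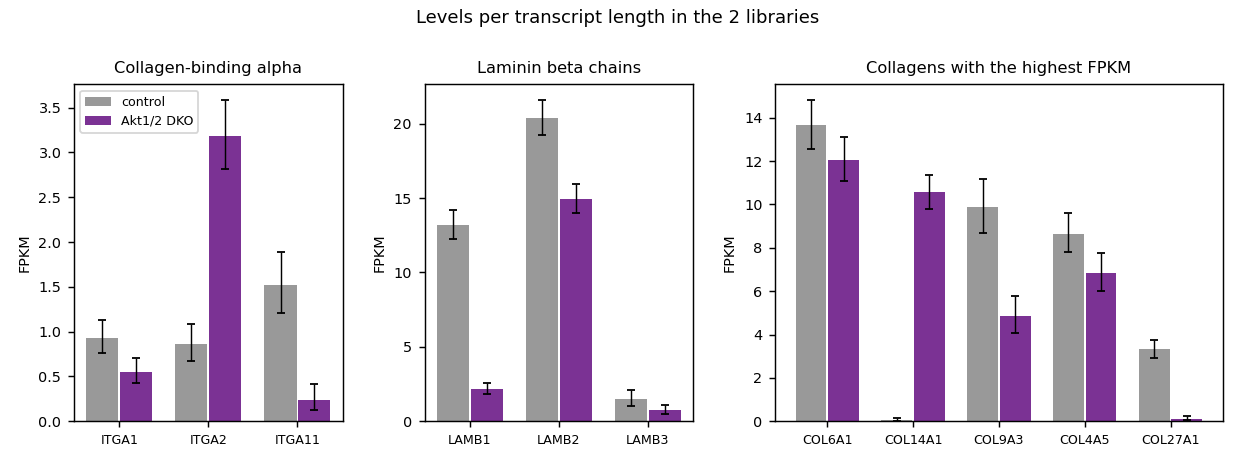
FPKM in control (grey) and Akt1/2 DKO (purple) for the collagen-binding integrin subunits, the laminin beta chains and the 5 collagens with the highest FPKM. Bars start at 0 and their error bars are 95% Poisson intervals for counting error. ITGA2 and COL14A1 were higher in Akt1/2 DKO, and ITGA11, LAMB1, COL9A3 and COL27A1 lower.

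Among the laminin-binding subunits ITGA3 had 338 and 304 reads and ITGA7 93 and 128, neither past 1.5-fold. ITGA7 was higher by reads (log2 fold change 0.31) and lower by FPKM (-0.48), so its direction differed between the scales. ITGA6, whose product pairs with ITGB1 or ITGB4 to hold laminin, had 20 and 52 reads, 2.35-fold higher (1.38 to 4.15), and ITGB4 had 5 and 6. The call of ITGA6 was lost with the FPKM ratio (log2 0.27). ITGA5, the fibronectin receptor subunit, had 164 and 98 reads, 1.86-fold lower (1.44 to 2.41). ITGB3 and ITGB8, both partners of ITGAV, had 17 and 4 reads and 37 and 13, which is 4.71-fold lower (1.54 to 19.2) and 3.16-fold lower (1.64 to 6.47). ITGAE, whose product binds E-cadherin rather than matrix, had 82 and 56 reads, 1.62-fold lower (1.14 to 2.32). Its exons share 427 bases with HASPIN on the opposite strand (273 and 307 reads). ITGA9 had 9 and 3 reads, past 1.5-fold with an interval that included no change, and ITGB7 had 8 and 7. ITGA2B and ITGA4 had under 10 reads, ITGB2 had 0 and 2, and ITGA8, ITGB6 and the leukocyte subunits ITGAD, ITGAL, ITGAM and ITGAX had none. The 3 kept genes that only share the letters, ITGB1BP1 (465 and 619 reads), ITGB3BP (109 and 155) and ITGB1BP2 (8 and 9), were not called, and ITGBL1 had no read.

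Of 44 collagen genes, 22 were kept and 18 (81.8%) called, 10 higher and 8 lower in Akt1/2 DKO, beside 30.9% of all genes. Many of these had few reads. At 100 or more reads over both libraries, 7 of 9 collagens (77.8%) were called, beside 23.2% of all such genes. Their summed FPKM hardly differed, 49.3 in control and 48.9 in Akt1/2 DKO, while the collagens that made up the sum were not the same. COL14A1, a collagen that sits on fibril surfaces, had 4 reads in control and 701 in Akt1/2 DKO, 158-fold higher with an interval from 61.5 to 582. It held 0.122% of the collagen FPKM in control and 21.6% in Akt1/2 DKO. The nearest genes with at least 50 reads, DEPTOR (109 and 162) and MRPL13 (523 and 531), were not called. Other collagens of the same FACIT class were at low levels. COL12A1 had 4 and 14 reads, and COL9A1 had 1 and 11 (a ratio of 9.92 as counted, without the floor, 1.44 to 427). COL19A1 had 0 and 16, 4.81-fold higher against the floor of 3 reads, with an interval from 3.48-fold upwards. COL9A3, a chain of the cartilage collagen IX, went the other way with 246 and 130 reads, 2.10-fold lower (1.69 to 2.62), and COL9A2 had 11 and 4. The exons of COL9A3 share 45 bases with TCFL5 on the opposite strand, which had 223 and 160 reads. COL16A1 and COL21A1 had under 10 reads, and COL20A1 and COL22A1 had none.

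Of the fibrillar collagens, COL27A1 and COL3A1 were lower and COL1A1 was higher. COL27A1, a fibrillar collagen of cartilage, had 247 reads in control and 10 in Akt1/2 DKO, 27.4-fold lower (14.6 to 57.8). COL3A1, a major fibrillar collagen of connective tissue, had 74 and 9 reads, 9.12-fold lower (4.55 to 20.7). COL1A1, which with COL1A2 makes collagen I, had 55 and 106 reads, 1.74-fold higher (1.24 to 2.45), but COL1A2 had only 1 and 3. COL2A1 had 0 and 13 reads, 3.91-fold higher against the floor of 3 reads, with an interval from 2.75-fold upwards. COL5A2 (174 and 191) and COL11A2 (26 and 28) were not called, and COL5A1, COL5A3, COL11A1 and COL24A1 had under 10 reads. For collagen I and collagen V, 1 chain gene thus held nearly all reads in both libraries.

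The collagen IV genes lie as 3 head-to-head pairs that share a promoter region, and the partners often had unequal reads. In RefSeq (GRCh38.p14), the starts of COL4A1 and COL4A2 are 126 bases apart on chromosome 13. COL4A2 had 23 reads in control and 137 in Akt1/2 DKO, 5.37-fold higher (3.44 to 8.76), whereas COL4A1 had 1 and 0. The sequence that separates them is shown because both genes start from it. It runs from chr13:110307158-110307283, read in the direction of COL4A2, with a CCAAT box (CCAAT) and a GC box (GGGCGG) in capitals.
COL4A1-COL4A2: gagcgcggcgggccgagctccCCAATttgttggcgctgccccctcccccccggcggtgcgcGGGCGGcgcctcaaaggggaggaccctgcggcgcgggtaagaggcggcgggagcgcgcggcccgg

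COL4A2 has further starts upstream in GENCODE, and its exons share 81 and 14 bases with a pair of antisense genes. The nearest expressed gene on the other side of COL4A1 is IRS2, an insulin receptor substrate, which had 509 and 2448 reads. In the second pair, whose starts are 418 bases apart on chromosome 2, COL4A3 had 7 and 82 reads, 10.6-fold higher (4.90 to 27.1), and COL4A4 had 8 and 16, with an interval from 0.73-fold to 4.87-fold. In the third, on chromosome X, COL4A5 had 366 and 249 reads, 1.63-fold lower (1.38 to 1.92), and COL4A6 had 2 and 3. COL4A5 had the highest FPKM of the collagen IV genes in both libraries, 8.65 and 6.84, and its call was lost with the FPKM ratio (log2 -0.34).

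Collagen VI showed unequal chains in another arrangement. COL6A1 had 581 and 551 reads and was the collagen with the highest FPKM in both libraries, 13.7 and 12.1. COL6A2, 93 kb downstream on the same strand, had 38 and 7 reads, 6.02-fold lower (2.66 to 16.0). COL6A3 on chromosome 2 had 7 and 45, 5.80-fold higher (2.60 to 15.2), so 2 chains that assemble with COL6A1 differed in opposite directions. COL6A5 and COL6A6 had 0 or 1 read. COL7A1, the anchoring fibril collagen, had 210 and 125 reads, 1.86-fold lower (1.49 to 2.34), and COL28A1 had 39 and 11, 3.93-fold lower (1.97 to 8.51). COL7A1 lies on chromosome 3, where the median gene was lower by 0.53. COL18A1, the basement membrane collagen that releases endostatin, had 33 and 36 reads. COL8A1, COL8A2, COL10A1, COL15A1, COL26A1 and the transmembrane collagens COL13A1, COL17A1, COL23A1 and COL25A1 had under 10 reads each.

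Of the 12 laminin chains, 8 were kept and 4 (50%) called, 0 higher and 4 lower, beside 30.9% of all genes. At 100 or more reads over both libraries, 1 of 4 chains (25%) was called. That is near the 23.2% of all such genes. LAMB1, a beta chain of basement membrane laminins, had 723 reads in control and 134 in Akt1/2 DKO, 5.98-fold lower (4.97 to 7.25). Its exons share 70 bases with DLD on the opposite strand (1880 and 1788 reads). LAMB2, the alternative beta chain, had 1156 and 911, a log2 fold change of -0.49, and it lies on chromosome 3. LAMB1 stood at 13.2 FPKM (12.3 to 14.2) in control and 2.17 (1.82 to 2.57) in Akt1/2 DKO, and LAMB2 at 20.4 and 14.9. LAMB2 held 58.1% of the beta chain FPKM in control and 83.6% in Akt1/2 DKO, and LAMB1 held 37.7% and 12.1%. The gamma and alpha chains with the highest FPKM were not called. LAMC1, the common gamma chain, had 2153 and 3324 reads, a log2 fold change of 0.48 (0.40 to 0.56). LAMA5, the main alpha chain, had 1677 and 1317, a log2 fold change of -0.50 (-0.60 to -0.39). LAMA3 and LAMB3, chains of epithelial laminin, were at low levels. LAMA3 had 36 and 5 reads, 7.98-fold lower (3.12 to 26.1). LAMB3 had 33 and 24 and was called lower, with an interval that included no change. LAMC3 had 10 and 16 reads, and LAMA1, LAMA2, LAMA4 and LAMB4 had 0 to 2 in each library.

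Of the genes that tie the basement membrane together, HSPG2, which encodes perlecan, had 134 and 8 reads, 18.6-fold lower (9.16 to 43.9). Its exons share 2121 bases with LDLRAD2 on the opposite strand, but LDLRAD2 had no read in either library. By FPKM the log2 ratio of HSPG2 was -2.97 and by reads -4.21. AGRN, which encodes agrin, had 2233 and 1607 reads, 1.54-fold lower (1.44 to 1.64), just past the threshold. It did not pass with total count scaling (-0.58), upper-quartile scaling (-0.57) or the FPKM ratio (-0.55). NID1, the nidogen that links laminin to collagen IV, had 29 and 63 reads, 1.96-fold higher (1.24 to 3.16), and NID2 had none. The ligands with the highest FPKM were LAMC1 (27.2 and 39.0), AGRN (30.4 and 20.7) and LAMB2 (20.4 and 14.9).

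THBS1 and TNC, matricellular proteins that tune cell adhesion, differed in opposite directions. THBS1 (ENSG00000137801, chr15:39581079-39599466 in GENCODE release 29, GRCh38) had 596 reads in control and 103 in Akt1/2 DKO, 6.42-fold lower (5.20 to 7.99). THBS1 has a qRT-PCR primer pair in the study, whose assayed genes were picked with these libraries in view, so its difference is not independent evidence. The primers are shown because they mark where that assay reads the transcript. Both matched THBS1 without mismatch, in exon 12 (chr15:39589217-39589236) and exon 13 (chr15:39589879-39589898) of a transcript with 22 exons, with an amplicon of 232 bases.
THBS1 forward: gatgcctgcttcaaccacaa
THBS1 reverse: acatggggtcgctatagtgg

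The exons of THBS1 share 448 bases with FSIP1 on the opposite strand, which had 4 and 6 reads. THBS3 (149 and 190 reads) and THBS4 (14 and 19) were not called, and THBS2 had 0 and 1. TNC, which encodes tenascin-C, had 104 and 479 reads, 4.15-fold higher (3.35 to 5.19), and by FPKM its log2 ratio was 2.48 where reads gave 2.05. FN1, the fibronectin gene, had 184 and 146 reads, a log2 fold change of -0.48 (-0.81 to -0.16), below the threshold. VTN had 13 and 12 reads, SPARC 2 and 3, and SPP1, the osteopontin gene, none. The RGD ligands FN1 and VTN were not called. Of the RGD-binding subunits, ITGAV and ITGB5 were not called by reads either, and ITGA5, ITGB3 and ITGB8 were called lower.

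The letters before the starts of 4 members called with at least 100 reads are shown, 2 lower (THBS1, LAMB1) and 2 higher (TNC, ITGA2) in Akt1/2 DKO. They are the 250 bases upstream of the RefSeq start (GRCh38.p14), 5′ to 3′ on the gene's strand, at chr15:39580829-39581078 (+), chr7:108003162-108003411 (-), chr9:115118158-115118407 (-) and chr5:52989102-52989351 (+). Capitals mark GC boxes (GGGCGG, or CCGCCC on the other strand) and, in THBS1, a CCAAT box (ATTGG on this strand) that adjoins a GC box.
THBS1: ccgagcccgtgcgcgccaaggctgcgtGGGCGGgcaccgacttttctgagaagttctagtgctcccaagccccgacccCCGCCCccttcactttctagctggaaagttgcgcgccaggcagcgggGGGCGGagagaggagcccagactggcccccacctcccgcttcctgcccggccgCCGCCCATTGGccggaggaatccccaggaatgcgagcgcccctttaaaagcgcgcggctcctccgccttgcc
LAMB1: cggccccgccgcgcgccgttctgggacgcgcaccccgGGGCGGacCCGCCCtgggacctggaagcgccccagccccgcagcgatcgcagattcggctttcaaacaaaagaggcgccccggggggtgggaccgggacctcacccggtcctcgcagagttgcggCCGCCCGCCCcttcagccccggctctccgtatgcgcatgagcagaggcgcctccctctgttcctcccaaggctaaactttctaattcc
TNC: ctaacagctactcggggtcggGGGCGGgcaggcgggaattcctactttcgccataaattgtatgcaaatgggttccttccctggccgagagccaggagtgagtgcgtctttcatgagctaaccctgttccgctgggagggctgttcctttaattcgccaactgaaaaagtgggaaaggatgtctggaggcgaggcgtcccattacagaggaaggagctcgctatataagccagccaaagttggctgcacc
ITGA2: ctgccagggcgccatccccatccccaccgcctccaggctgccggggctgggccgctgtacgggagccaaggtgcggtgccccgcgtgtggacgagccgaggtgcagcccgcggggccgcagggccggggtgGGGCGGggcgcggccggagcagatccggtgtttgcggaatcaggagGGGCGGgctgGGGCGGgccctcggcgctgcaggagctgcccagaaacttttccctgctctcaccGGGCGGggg

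All 4 hold at least 1 GC box, and so do 54.2% of the 96 windows of the 74 members with an entry and 42.5% of all 34943 windows of this length. Because the study concerns Akt and FOXO proteins, the FOXO core (GTAAACA) was also searched on both strands. The FOXO core was in 0 of the 96 windows, beside 2.98% of all windows. A CCAAT box was in 27 of 96 windows and a TATA box (TATAAA) in 11 of 96, beside 32.0% and 10.8% of all. These are counts of letters in short windows and say nothing of binding.

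Several members are chromosomal neighbours. The members formed 20 pairs of neighbours less than 1 Mb apart, and in 11 of these both genes were kept. In 2 pairs both were called in the same direction, in 2 in opposite directions, in 6 only 1 was called and in 1 neither was. With 62.1% of kept members called, these counts are a description, and pairs of other genes were not compared. ITGA1 and ITGA2 are 30.1 kb apart on chromosome 5 and were called in opposite directions, as were COL27A1 and TNC, 707 kb apart on chromosome 9. COL3A1, 9.12-fold lower, lies 19.1 kb from COL5A2, which was not called. COL6A1, which was not called, and COL6A2, 6.02-fold lower, are 93.0 kb apart on chromosome 21. Of the 16 members called with at least 100 reads, 9 had no gene called in their own direction among the nearest with at least 50 reads on either side. The other 7 had 1, among them COL27A1, beside KIF12 (422 and 57 reads). How often genes outside this part have such a neighbour was not counted, so these numbers are a description only.

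**Figure D4:**
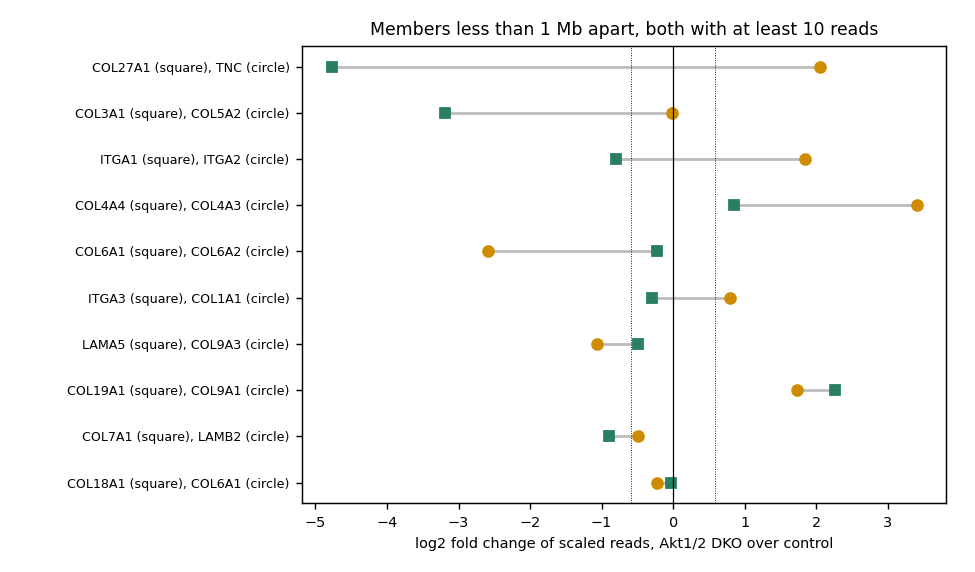
Log2 fold change of scaled reads, Akt1/2 DKO over control, for pairs of members less than 1 Mb apart with both kept. The square is the first gene along the chromosome, the circle the second, and dotted lines mark 1.5-fold. COL27A1 (-4.78) and TNC (2.05) lie farthest apart.

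Genes that work with the integrins were described from 3 further lists. Of 14 other matrix receptors, 9 (64.3%) were called, 3 higher and 6 lower, beside 30.9% of all genes. CD44, the hyaluronan receptor, had 21 reads in control and 542 in Akt1/2 DKO, 23.3-fold higher (15.1 to 37.9). By FPKM its log2 ratio was 3.63 where reads gave 4.54. DDR1, a collagen-activated receptor kinase, had 4349 and 2090, 2.31-fold lower (2.19 to 2.43), and its paralog DDR2 had 5 and 30. SDC2, a syndecan, had 421 and 112 reads, 4.17-fold lower (3.38 to 5.18). Of the receptors for THBS1, CD36 had 796 and 1 reads and CD47 had 415 and 747, 1.62-fold higher. Of 25 genes of the adhesion complex, 24 were kept and 11 (45.8%) called, 3 higher and 8 lower, beside the same 30.9%. At 100 or more reads, 10 of 23 (43.5%) were called, beside 23.2% of all such genes. BCAR1, the scaffold p130Cas, had 1603 and 5548 reads, 3.12-fold higher (2.95 to 3.30). SRC had 583 and 203, 3.18-fold lower (2.71 to 3.75), and the tensins TNS1 (135 and 42) and TNS2 (254 and 98) were 3.56-fold and 2.87-fold lower. PTK2 (focal adhesion kinase) and PXN (paxillin) were also called lower, PTK2 not with the FPKM ratio (log2 -0.50), and talin (TLN1), vinculin (VCL) and ILK were not called. The kindlins FERMT3 (41 and 124 reads) and FERMT2 (195 and 401) were called higher, 2.73-fold and 1.85-fold. FERMT2 did not pass with the FPKM ratio (log2 0.56). Of 24 genes of collagen folding and crosslinking, 21 were kept and 9 (42.9%) called, 4 higher and 5 lower, again beside 30.9%. SERPINH1, the collagen chaperone HSP47, had 431 and 159 reads, 3.01-fold lower (2.50 to 3.63). The prolyl hydroxylase subunits P4HB and P4HA1 were 1.60-fold and 1.75-fold lower. Among the genes called higher were the crosslinking enzymes LOX, with only 5 and 31 reads, LOXL1, 1.55-fold (1.12 to 2.17), and LOXL3, 1.80-fold (1.38 to 2.38). LOXL2 (38 and 57 reads) was not called.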

How the data were processed

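Both kinds of values for the 2 libraries were deposited by the authors, namely estimated counts per gene without normalization and FPKM. The processing notes name fastp 0.20.0, TopHat, Cufflinks, edgeR and the build GRCh38.p10, and the counting tool, annotation and strand setting are not given in the sources used here. The deposited fold changes, p-values, FDR, ontology counts and library correlation of the authors' own comparison were not used. Of 19607 identifiers, 19571 were found in GENCODE release 29 (GRCh38), including all 99 members.

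Estimated counts were rounded. A gene needed 10 reads or more over both libraries, and TMM in edgeR 4.0.16 (R 4.3.3) gave a library ratio of 1.11, Akt1/2 DKO to control. Intervals are Clopper-Pearson, given the sum of reads (scipy 1.17.1, Python 3.11.15). The reads carry no molecular identifiers, so intervals and floors cover counting error only. For calls and bounds, a library under 3 reads, the floor (0.301 and 0.280 CPM), was set to 3; a gene with 1 or 2 reads in a library is printed as counted. With 1 library per condition there was no test and no p-value, and batch and genotype cannot be told apart. FPKM served to compare levels between genes.

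Members, lists and thresholds were chosen with earlier results of these data known. Described in full were members with at least 100 reads that passed 1.5-fold, the 3 receptors and 3 ligands with the highest FPKM, members at 3 reads or fewer in 1 library and at least 20 in the other (there were 0), the collagen IV genes and THBS1, and of the other lists up to 4 genes with at least 100 reads past 2-fold. Members and markers not reported here are still counted in the totals. Other genes were named after their values were seen. Promoter letters are from RefSeq (74 of 99 members matched). The steps were tested on simulated data. The alternatives were total count, DESeq2 1.42.0 and upper-quartile scaling, the FPKM ratio, 3 read filters, a 2-fold threshold, whole intervals past 1.5-fold, and leaving out chromosome 3.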

Additional observations from a re-analysis of the deposited data

How the results depend on the processing

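The numbers of members called moved by more than 1.5 times only with stricter filters or thresholds, each of which keeps fewer genes or asks for a larger difference, and not with another scaling, with the FPKM ratio, without a read filter or without chromosome 3. Asking for 50 reads over both libraries, 9 members were higher, 7 of them ligands. With at least 10 reads in each library, 6 members were higher and 14 lower, of which 4 and 9 were ligands. With the whole interval past 1.5-fold, 8 members were higher and 13 lower, with 7 ligands higher and 1 receptor higher and 3 lower. At 2-fold, 4 receptors were lower, as were 3 other matrix receptors and 5 genes of the adhesion complex, and of the collagen folding and crosslinking genes 2 were higher and 1 lower. Medians moved by less than the counting error of a typical member (0.70). That limit is for 1 gene and is wider than the medians themselves, so it could hardly be passed. The ligand median was -0.48 with 50 reads over both libraries and -0.04 without chromosome 3. Receptors and ligands could not be ordered by their medians. Leaving out the 4 genes that are not integrin subunits, chosen after seeing the data, gave a median of -0.30 over all members. Of 140 values for the genes described in full, 132 stayed within their interval and 8 moved, all with the FPKM ratio, and the cause was not tested. Depth limits ITGA9, LAMB3, COL4A4, COL9A2 and COL12A1, whose intervals include no change. No paired analysis was possible because there is 1 library a genotype and no replicate number.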
